A study of Mus musculus with 4 samples.

Results

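The Zfp genes of the mouse are the genes whose symbol is Zfp followed by a number. Every probe set that the platform annotation assigns to 1 gene with such a symbol, with or without a final letter, was taken as a member: 612 probe sets of 329 genes, among 34945 probe sets that name 1 of 18194 genes. Of these, 320 probe sets of 227 genes were detected (Present) on the 2 KO arrays, the 2 WT arrays or all 4, and entered the comparison. The other 292 probe sets did not, and 102 genes had no probe set in it. The RNA came from heart ventricles of mouse embryos at embryonic day 17.5, of a cross between the strains C57BL/6 and SV129, and was hybridised to 4 Affymetrix arrays. The KO group was 2 arrays of HDAC2-deficient embryos, each from a pool of 3 animals, and the WT group was 2 arrays of wild-type littermates, each from a pool of 2. The labels do not say how the Hdac2 gene was disrupted. All values are MAS5 signals, a brightness on a linear scale, and each difference is KO minus WT in log2 units, followed by ± and its standard error as moderated by limma (SE), from 2 arrays per group. The p-values of limma are two-sided and adjusted over all 19065 probe sets tested.

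Because another label field of the KO samples reads as wild type, the deleted gene was read first. At 1445684_s_at it read 31.4 and 21.0 on the KO arrays, without a Present call, against 1189 and 1421 on the WT arrays (Hdac2, -5.66 ± 0.21, adjusted p = 2.32e-09 in limma), so the titles and the gene went together. All 9 marker genes of ventricular muscle were Present on all 4 arrays, and 2 of them were lower in KO past the threshold, as was 1 of 3 atrial genes. Pool size went with genotype, and the labels do not say whether pools shared animals, so the p-values reflect no more than how these pools vary, and that variation may be technical. In tissue arrays like these, fewer cells of a type and less RNA per cell cannot be told apart.

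Zinc fingers of the classical kind are short loops of a protein folded around a zinc ion, and a row of them can read a stretch of DNA. Many Zfp proteins join such a row to a KRAB domain, which binds Trim28, a scaffold that brings in the histone methyltransferase Setdb1, heterochromatin proteins and the NuRD complex with the deacetylases Hdac1 and Hdac2. KRAB zinc finger genes sit in clusters, evolve fast, and are known for silencing transposable elements and imprinted genes. Other genes share the name only through their fingers and act in RNA decay, ribosome assembly or cell division.

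Promoter windows of 300 bases around the annotated start, from RefSeq on GRCm38.p6, were found for 189 of the 227 genes compared. Those below belong to the 1 member that passed the test (Zfp207, chr11:80383029-80383328 (+ strand)), to a member both of whose probe sets were lower on both KO arrays (Zfp267, chr3:36150830-36151129 (+ strand)) and to the member with the smallest p among the higher ones (Zfp472, chr17:32965581-32965880 (+ strand)). Each is 5′ to 3′, and capitals mark matches on either strand to 3 motifs that were searched, the GC box GGGCGG, the ETS-type CCGGAAG and the TATA-type TATAAA. Matches of different motifs may overlap by a few letters.
Zfp207: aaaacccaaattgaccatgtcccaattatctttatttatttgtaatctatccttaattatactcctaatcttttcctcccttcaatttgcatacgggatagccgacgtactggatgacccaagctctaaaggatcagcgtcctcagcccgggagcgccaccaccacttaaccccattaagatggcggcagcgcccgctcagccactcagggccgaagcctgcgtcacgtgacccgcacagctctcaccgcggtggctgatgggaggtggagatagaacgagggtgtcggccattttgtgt
Zfp267: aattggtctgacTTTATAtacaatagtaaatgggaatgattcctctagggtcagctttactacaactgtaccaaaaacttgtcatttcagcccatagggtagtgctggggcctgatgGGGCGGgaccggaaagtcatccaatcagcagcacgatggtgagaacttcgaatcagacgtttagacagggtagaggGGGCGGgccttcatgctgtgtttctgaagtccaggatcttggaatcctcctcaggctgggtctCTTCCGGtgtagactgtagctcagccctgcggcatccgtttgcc
Zfp472: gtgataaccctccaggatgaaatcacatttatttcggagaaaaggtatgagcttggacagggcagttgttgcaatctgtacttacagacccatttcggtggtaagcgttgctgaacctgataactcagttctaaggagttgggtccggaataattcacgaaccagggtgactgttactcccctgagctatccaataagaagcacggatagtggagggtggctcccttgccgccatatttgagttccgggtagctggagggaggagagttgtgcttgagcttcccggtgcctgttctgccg
The Zfp267 window held 2 GC boxes, 1 CCGGAAG and 1 TATAAA, and the other 2 windows held none of the 3 motifs. There were 17 CG dinucleotides in the window of Zfp207, 9 in that of Zfp267 and 10 in that of Zfp472. For Zfp871 and Zfp131, with 2 windows each, the first listed window was also read and is not printed. Each held 1 GC box and neither other motif, with 12 and 36 CG dinucleotides in that order. Over the 230 windows of the Zfp genes compared, GGGCGG was in 50%, CCGGAAG in 20.9% and TATAAA in 6.52%. Over the 10650 windows of all genes tested the shares in that order were 62.9%, 17.4% and 7.59%, and over all 32851 RefSeq windows they were 35.7%, 8.86% and 13.6%. The median window of the Zfp genes had 16 CG dinucleotides and that of all genes tested 21. A match is a run of letters and not a shown binding site.

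One probe set of the 320 passed the adjusted threshold of 0.05, and it was lower in KO. It belongs to Zfp207, also called BuGZ, a microtubule-binding protein that loads Bub3 onto kinetochores in dividing cells. Probe set 1438714_at read 318.5 and 241.3 on the KO arrays, against 543.5 and 564.1 on the WT arrays. Both KO values lay far below both WT values, and the difference was -0.998 ± 0.16, or 2.00-fold lower in KO (adjusted p = 0.00540 in limma). With any 1 array left out, Zfp207 1438714_at still passed (adjusted p from 0.000681 to 0.0147 in limma), but such a fit takes the spread from the 2 arrays of the other group and assumes that the lone array varies like them. The call was lost without the variance trend (adjusted p = 0.178 in limma) and without the filter on detection (adjusted p = 0.146 in limma).

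**Figure D1:**
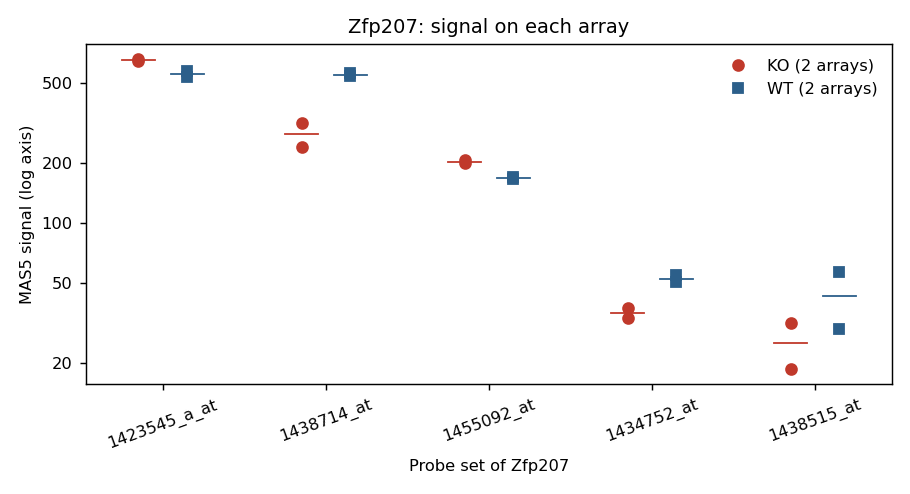
MAS5 signal (log axis) of the 5 tested probe sets of Zfp207 on each array, with KO to the left of WT and a line at the group mean of 2 arrays. At 1438714_at both KO arrays lie at 318.5 or below and both WT arrays at 543.5 or above, while at 1423545_a_at and 1455092_at the KO arrays lie above the WT arrays.

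None of the other probe sets of Zfp207 passed the test, and 2 of them were higher in KO. The brightest, 1423545_a_at, read 651.4 and 659.6 in KO, against 541.3 and 578.7 in WT (0.23 ± 0.12, adjusted p = 0.395 in limma). Probe set 1455092_at read 206.8 and 198.9 in KO, against 166.5 and 170.2 in WT (0.27 ± 0.17). At both, the KO arrays lay above the WT arrays. The dimmer 1434752_at read 33.4 and 37.6 in KO, against 50.6 and 54.8 in WT (-0.57 ± 0.30), and 1438515_at read 18.6 and 31.5 in KO, against 56.9 and 29.4 in WT (-0.76 ± 0.42), where the groups overlapped. A sixth, 1423546_at, was not Present on any array. When the brightest tested probe set stood for each gene, 0 of the 227 Zfp genes passed in limma, against 1.3% of all 10184 genes (0.481% higher and 0.815% lower), and 21 had an unadjusted p under 0.05 (16 higher, against 8.42% of all genes, and 5 lower, against 7.14%).

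The series differed between the groups in other ways as well. The 12 skeletal muscle marker genes tested had summed signals of 1263 and 1271 in KO, against 13296 and 12378 in WT. Of them 10 fell, 7 had no Present call in KO, and none was at a signal of 0, the lowest KO value being 2.3. Of 5 bone and cartilage genes tested 3 fell, with sums of 120.7 and 140.1 in KO, against 337.1 and 349.2 in WT. Of 6 fibroblast genes 2 fell, with sums of 14010 and 15226 in KO, against 16820 and 17118 in WT, and of 3 erythroid genes tested 1 rose, with sums of 600.2 and 613.0 in KO, against 522.7 and 430.2 in WT. No endothelial or macrophage marker gene passed the test. Of 4 sex-linked genes tested, 2 genes of the Y chromosome fell and Xist rose. The labels do not give the sex of the pooled embryos, so sex cannot be told apart from genotype here. Xist, the RNA of the inactive X chromosome, read 547.9 and 793.7 in KO, against 80.5 and 90.1 in WT at 1436936_s_at (adjusted p = 8.10e-07 in limma). The 3′ over 5′ signal ratio of actin, a gauge of RNA length, was 2.75 and 2.42 in KO and 1.85 and 2.32 in WT. The part of any of these in the difference of Zfp207 was not tested.

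Across the family, the share of probe sets called was below that of the array. The 1 call is 0.312% of the members, where 1.34% of all probe sets tested were called (0.383% higher and 0.96% lower in KO). At an unadjusted p under 0.05, which is not a call, there were 32 members (10%, against 15.5% of all), 21 of them higher (6.56%, against 7.29% of all) and 11 lower (3.44%, against 8.23% of all). With quantile normalization there were 43 such members (13.4%, against 14.9% of all), 34 of them higher. In that setting 66.9% of the members and 55.3% of all probe sets had a positive difference. Leaving out an array changed these counts. Without WT replicate 2, 4 members passed, where 239 of all probe sets did, against 256 with every array. Without KO replicate 1, 2 members and 650 of all probe sets passed. Without WT replicate 1, 18 members (5.62%, against 9.43% of all) had an unadjusted p under 0.05.

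Most members lay slightly to the positive side. The difference was positive at 196 of the 320 (61.3%) and negative at 124 (38.8%), against 52% positive and 48% negative over all probe sets tested. The median difference was 0.075 for the members and 0.014 for all, and the middle 50% of the members spanned -0.12 to 0.25. By the brightest probe set of each gene, 63% of the 227 Zfp genes were positive, against 55.7% of all 10184 genes, with medians of 0.074 and 0.035. Both KO arrays lay above both WT arrays at 92 members (28.7%, against 25% of all) and below at 47 (14.7%, against 22.5% of all). All 4 pairs of a KO with a WT array gave the members a positive median difference, from 0.061 to 0.107, against 0.008 to 0.016 for all probe sets. These medians moved with the scaling: the members' median was 0.136 with quantile normalization and 0.043 when each array was centred on its median over the always-detected probe sets, where that of all probe sets was 0.032 and -0.018. They are descriptions, with no test.

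**Figure D2:**
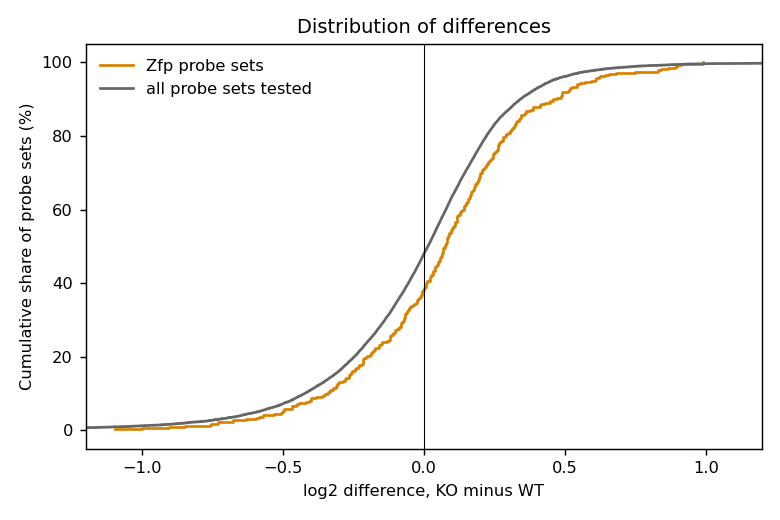
Cumulative share (%) of probe sets against the log2 difference, KO minus WT, for the 320 Zfp probe sets and for all 19065 tested. The Zfp curve lies to the right of the other around 0, with medians of 0.075 and 0.014. The axis from -1.2 to 1.2 holds 99.0% of all probe sets tested.

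Of the genes with the smallest p on the higher side, none passed the test. Zfp472 at 1425058_at read 94.5 and 97.7 in KO, against 38.7 and 67.3 in WT (0.91 ± 0.28, adjusted p = 0.148 in limma). Zfp787 at 1435015_at read 91.2 and 83.8 in KO, against 30.0 and 64.8 in WT (0.99 ± 0.33, adjusted p = 0.181 in limma). Neither WT array had a Present call there, and the 95% interval of the difference was 0.27 to 1.70. In both genes the 2 KO arrays were close together and the 2 WT arrays apart. Both passed without WT replicate 2 (adjusted p = 0.0331 for Zfp472 1425058_at and 0.0142 for Zfp787 1435015_at in limma), where the spread comes from the KO pair and the lone WT array is assumed to vary like it. Without WT replicate 1 they stood at 0.51 and 0.43. Zfp787 entered the comparison through its KO calls only, where it is high.

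Other genes on this side had both KO arrays above both WT arrays without passing the test. Zfp131, a BTB-domain transcription regulator, read 415.9 and 350.6 in KO, against 268.0 and 288.7 in WT (0.46 ± 0.15, adjusted p = 0.173 in limma). Zfp618, whose human counterpart binds the chromatin reader UHRF2, read 142.1 and 174.1 in KO, against 95.6 and 111.2 in WT (0.61 ± 0.20). Zfp771 had KO arrays above WT arrays at both tested probe sets, with 787.5 and 740.5 in KO, against 556.2 and 638.8 in WT at 1440817_x_at (0.36 ± 0.13), and 114.9 and 166.2 in KO, against 83.7 and 91.9 in WT at 1440971_x_at (0.66 ± 0.23). The suffix of both marks probes that can match other transcripts too. Zfp946 stood at 0.54 ± 0.19, Zfp770 at 0.47 ± 0.17, and the highest of several tested probe sets at 0.62 ± 0.21 for Zfp62, 0.49 ± 0.17 for Zfp655 and 0.83 ± 0.32 for Zfp606. The adjusted p of each was 0.173 or more in limma. The other tested probe sets of Zfp62 (0.21 ± 0.21), Zfp655 (-0.11 ± 0.27 and 0.12 ± 0.26) and Zfp606 (0.11 ± 0.38 and 0.27 ± 0.25) had groups that overlapped.

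On the lower side, besides Zfp207, none passed either. Zfp871 at 1435163_at read 87.6 and 98.4 in KO, against 213.2 and 131.1 in WT (-0.85 ± 0.24, adjusted p = 0.108 in limma). The brighter 1433784_at of Zfp871 read 643.2 and 586.5 in KO, against 607.6 and 595.2 in WT (0.030 ± 0.12). Its 1453140_at read 285.6 and 223.1 in KO, against 309.4 and 298.3 in WT (-0.27 ± 0.16), without overlap. The first of these passed without WT replicate 2 (adjusted p = 0.0142 in limma for Zfp871 1435163_at), under the same assumption. Zfp267 was lower at both of its probe sets, with 83.4 and 85.8 in KO, against 126.9 and 143.9 in WT at 1437557_at (-0.68 ± 0.21, adjusted p = 0.136 in limma), and 79.0 and 106.6 in KO, against 128.5 and 147.2 in WT at 1455757_at (-0.58 ± 0.22, adjusted p = 0.228 in limma). At neither did the groups overlap. Zfp219, a partner of Sox9 in cartilage cells, read 165.5 and 142.1 in KO, against 210.1 and 234.5 in WT (-0.53 ± 0.18, adjusted p = 0.172 in limma). Of the cartilage and bone genes 3 of 5 tested fell, as given above, and their part in this difference was not tested.

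Zfp687, whose human counterpart works with the chromatin reader ZMYND8, read 127.6 and 104.4 in KO, against 162.2 and 163.4 in WT (-0.50 ± 0.19). Zfp142 read 36.7 and 42.4 in KO, against 89.3 and 49.9 in WT (-0.76 ± 0.32). Zfp14 read 34.1 and 37.4 in KO, with no Present call, against 50.6 and 57.5 in WT at 1441619_at (-0.59 ± 0.30). Its 1456770_at stood at -0.51 ± 0.30, and Zfp213 stood at -0.44 ± 0.23. In these 4 the groups did not overlap, and the adjusted p was 0.244 or more in limma. The lowest fitted value of any member was that of Zfp352 at the dim 1425879_at, named here after its values were seen, with 35.4 and 7.0 in KO, against 39.3 and 28.8 in WT (-1.10 ± 0.61). Its difference rests on KO replicate 2, and it passed when KO replicate 1 was left out, with the spread taken from the WT pair.

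**Figure D3:**
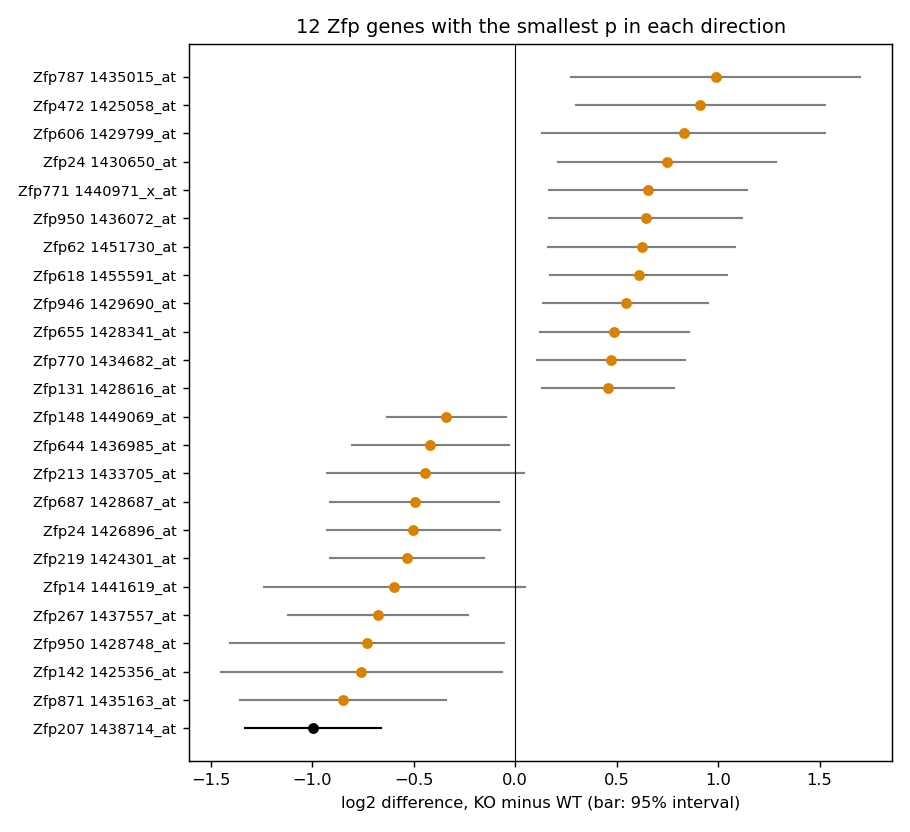
The log2 difference, KO minus WT, with its 95% interval for the 12 Zfp genes with the smallest p in each direction, 1 probe set per gene and direction. Zfp207 1438714_at (black) at -0.998 is the 1 that passed the adjusted threshold, and the others range from -0.85 to 0.99.

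Probe sets of the same gene often pointed in different directions. Of 61 Zfp genes with at least 2 tested probe sets, all probe sets had the same sign in 27 (44.3%), against 48.9% of the 4107 genes of that kind on the array. In 2 of the 61 (3.28%, against 1.31% of all) a probe set at unadjusted p under 0.05 was higher and another lower. One is Zfp24, a SCAN-domain protein needed for myelination in the mouse, which read 117.1 and 116.3 in KO, against 55.7 and 86.6 in WT at 1430650_at (0.75 ± 0.25), but 180.4 and 127.5 in KO, against 199.9 and 230.9 in WT at 1426896_at (-0.50 ± 0.20). Its brightest, 1426895_at, stood at 0.26 ± 0.15. The other is Zfp950, at 150.1 and 112.9 in KO, against 79.2 and 87.8 in WT at 1436072_at (0.64 ± 0.22), and 45.7 and 72.6 in KO, against 128.2 and 71.1 in WT at 1428748_at (-0.73 ± 0.31), where the groups overlap.

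The same was seen in genes with many probe sets. Zfp148, a factor that binds GC-rich promoters, had 6 tested probe sets, of which 1449069_at read 461.1 and 533.0 in KO, against 672.7 and 585.0 in WT (-0.34 ± 0.14, adjusted p = 0.257 in limma), and the others lay between -0.30 and 0.16. Zfp644, whose human counterpart joins the histone methyltransferase G9a, read 190.3 and 231.8 in KO, against 321.5 and 245.1 in WT at 1436985_at (-0.42 ± 0.18), while its other 3 lay between 0.15 and 0.22. Where on its transcript each probe set lies was not analysed here.

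**Figure D4:**
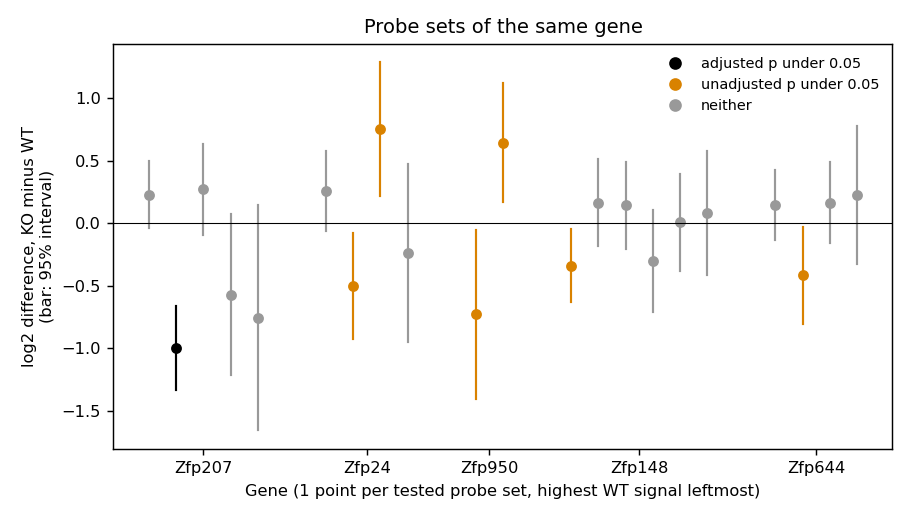
The log2 difference, KO minus WT, with its 95% interval for every tested probe set of 5 Zfp genes, the highest WT signal leftmost within a gene. In each gene some probe sets lie above 0 and others below, and Zfp207 1438714_at (black) is the 1 past the adjusted threshold.

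Apart from those above, no member named for its known role passed the test. Of the named members of known role, 17 genes with 43 probe sets were tested, of which 30 probe sets were positive (69.8%, against 52% of all) and 4 had an unadjusted p under 0.05 (9.3%, against 15.5% of all). Among RNA-binding members, Zfp36, which marks AU-rich messages for decay, read 206.1 and 224.8 in KO, against 241.4 and 292.7 in WT (-0.30 ± 0.17, 95% interval -0.66 to 0.052). Zfp106, needed by motor neurons and muscle in the mouse, read 1241 and 1387 in KO, against 1158 and 1467 in WT at its brightest probe set (0.010 ± 0.13, 95% interval -0.26 to 0.28). Zfp638, which silences unintegrated retroviral DNA, stood at 0.19 ± 0.14 at 1417791_a_at, and Zfp622, a ribosome assembly factor, at 0.12 ± 0.12 at 1438000_x_at. The suffix of the latter marks probes that can match other transcripts too. The dimmer 1425030_at of Zfp622 stood at -0.28 ± 0.24, with groups that overlapped. For Zfp36 the KO arrays lay below the WT arrays, and at the brightest probe set of Zfp106 the groups overlapped. At 1425331_at of Zfp106 the KO arrays, at 199.0 and 198.2, lay above the WT arrays, at 180.2 and 179.7 (0.14 ± 0.17).

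KRAB members known from imprinting and retroviral silencing did not pass the test either. Zfp568, which represses a placental transcript of Igf2, read 669.7 and 559.1 in KO, against 587.8 and 602.5 in WT (0.040 ± 0.13, 95% interval -0.24 to 0.32). Zfp445, which protects imprints, read 885.2 and 830.5 in KO, against 816.3 and 932.2 in WT at its brightest probe set, 1454774_at (-0.025 ± 0.12). At 1427254_at of Zfp445 the KO arrays, at 116.0 and 148.3, lay below the WT arrays, at 180.0 and 149.2 (-0.32 ± 0.20), and 1427255_s_at stood at 0.15 ± 0.18. Zfp809, which binds the primer site of retroviruses, read 246.4 and 166.1 in KO, against 185.7 and 195.5 in WT (0.087 ± 0.20). At the brightest tested probe set of all 3 the groups overlapped, and the sign turned with 1 array left out. Zfp57, another protector of imprints, was not Present on any array.

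Among regulators of cell fate, several had KO arrays above WT arrays at some of their probe sets, without passing the test. Zfp281, a regulator of pluripotent cells, stood at 0.31 ± 0.19 and 0.16 ± 0.18, with groups that overlapped at both probe sets. Zfp521, which acts in blood and bone precursors, stood at 0.17 ± 0.16 at 1451332_at. Zfp467, which favours fat over bone cells, read 92.9 and 97.0 in KO, against 79.8 and 72.3 in WT at 1449510_at (0.32 ± 0.22), and 80.4 and 62.9 in KO, against 57.5 and 44.9 in WT at 1441727_s_at (0.48 ± 0.27), without overlap at either. Zfp217, a partner of corepressors, stood at 0.0023 ± 0.16, Zfp335, a regulator of neural precursors, at 0.083 ± 0.21, Zfp292 at 0.29 ± 0.14 at its brightest probe set, and Zfp318, which controls splicing of the IgD message in B cells, at 0.26 ± 0.15 at 1425346_at. Zfp91, a ubiquitin ligase, read 625.8 and 716.9 in KO, against 525.8 and 579.3 in WT at 1429615_at (0.28 ± 0.13, adjusted p = 0.323 in limma). At 1426326_at and 1429616_at Zfp91 stood at -0.25 ± 0.26 and -0.45 ± 0.43, with groups that overlapped. Zfp318 stood at 0.32 ± 0.20 at 1430558_at, with overlap, and at -0.22 ± 0.29 at 1421479_at, with both KO arrays below both WT arrays. The other tested probe sets of Zfp292 lay between -0.068 and 0.11. None of these passed. Zfp423 and Zfp703 were not Present on any array, and Zfp42, a marker of pluripotent cells, was Present on WT replicate 1 only.

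The members were dimmer at the median than all probe sets tested, and their median SE was larger. The part of precision in the share of members called was not tested. The members' median mean signal was 100.1, against 189.8 over all probe sets tested, and their median SE was 0.23, against 0.18. At that SE a difference of 1.00, a 2-fold change, was needed to pass, against 0.80 at the median SE of all. The 106 dimmest members had a median SE of 0.32 and would have needed 1.43, and the 107 brightest had 0.17 and would have needed 0.73. Differences of at least 1.5-fold were reached by 28 members (8.75%, against 7.49% of all), and 1 member reached 2-fold in the fit (0.312%, against 1.6% of all). That member was Zfp352 1425879_at (-1.10), which did not pass the test, while Zfp207 1438714_at, at -0.998, lay just short of it. In the 3 signal classes, from the dimmest to the brightest, the members' median difference was 0.058, 0.082 and 0.081, against -0.11, -0.033 and 0.052 for all probe sets tested in the same signal ranges.

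**Figure D5:**
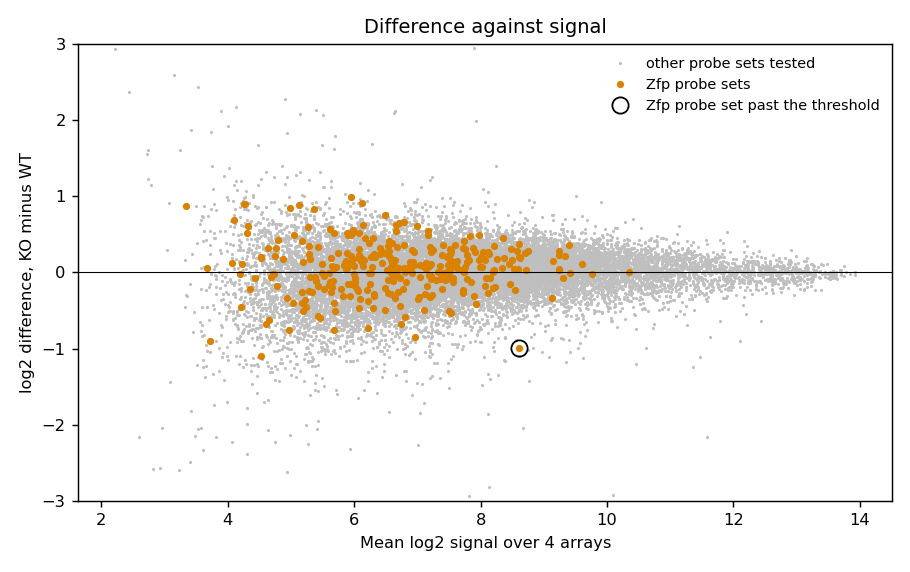
The log2 difference, KO minus WT, against the mean log2 signal over 4 arrays for the 320 Zfp probe sets and the others tested. The Zfp points spread most at low signal, and the ringed one, Zfp207 1438714_at, lies at -0.998. The axis ends at -3 and 3, and 26 probe sets, none a Zfp one, lie beyond it.

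The filter on detection decided which members were compared. Of the 320, 276 were Present on all 4 arrays, 10 had no Present call in WT and 6 had none in KO. Of the 292 left out, 226 were Present on no array, 45 on 1 array and 21 on 1 KO and 1 WT array. Just inside, Zfp418 at 1424974_at read 41.9 and 39.5 in KO and 41.8 and 50.3 in WT, with a detection p-value of 0.0461 on the weaker of its Present WT arrays. Just outside, Zfp397 at 1425361_at read 99.8 and 79.5 in KO and 83.4 and 136.9 in WT, with a deposited detection p-value of 0.0562 on KO replicate 1. A member that entered through 1 group is more likely to differ, so among the 276 Present on all 4 arrays the non-overlapping members were counted again: both KO arrays were above both WT arrays at 81 (29.3%, against 26.4% of all such probe sets) and below at 40 (14.5%, against 21.4%).

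With the RefSeq gene table of GRCm38.p6, 139 of the 227 genes compared had another member within 500 kb. Each gene is given here by its brightest tested probe set. Of these 88 (63.3%) had a positive difference, against 55 (62.5%) of the 88 that lay alone, with medians of 0.067 and 0.080. Over all 10184 genes 55.7% were positive, with a median of 0.035. Of 11 clusters with at least 4 compared genes, 8 had a positive median. The one with most compared genes, 18 on chromosome 17 from Zfp160 to Zfp13, had 12 positive and 6 negative differences, from -0.44 to 0.57, with a median of 0.25. A dimmer probe set of Zfp995 in that cluster, 1455648_at, stood at -0.50. A cluster of 10 on chromosome 17, which holds both Zfp871 and Zfp472, had 5 of each sign and a median of 0.014. A cluster of 5 on chromosome 7, from Zfp141 to Zfp819, had all 5 positive by their brightest probe sets, from 0.058 to 0.90. The second probe set of Zfp975 there, 1460017_at, stood at -0.33, and none of the 6 tested probe sets of the cluster reached an unadjusted p under 0.05.

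The X chromosome, whose silencing RNA Xist was higher in KO, holds 5 of the genes compared. The sex of the pools is not given, and its part in these values was not tested. Zfp275 read 681.9 and 677.1 in KO, against 652.6 and 715.1 in WT (-0.0077 ± 0.12), and Zfp449 read 160.5 and 170.9 in KO, against 118.3 and 147.0 in WT (0.33 ± 0.19). Zfp280c stood at 0.074 ± 0.18, Zfp711, mutated in human X-linked intellectual disability, at 0.30 ± 0.27, and the probe sets of Zfp182 at 0.14 ± 0.35 and 0.68 ± 0.54. At the first of these, 1446820_at, neither WT array had a Present call. At the second, 1459712_at, the KO arrays read 14.2 and 32.9 without a Present call. The WT arrays read 11.0 and 16.5 there, both Present, so the sign of that difference goes against the calls. Of the 6 probe sets 5 were positive, none passed the test, and the groups were apart at Zfp449 alone.

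The partners through which KRAB zinc finger proteins silence genes were read from a list of 25 genes, of which 20 were tested at 45 probe sets. Hdac2 itself was lower at all 3 of its probe sets and passed at 2, with 1439704_at at -1.43 ± 0.42 (adjusted p = 0.123 in limma). No other gene of the list passed in limma in either direction. Of the 42 probe sets of the other 19 genes, 4 were higher (9.52%, against 7.29% of all) and 5 lower (11.9%, against 8.23% of all) at an unadjusted p under 0.05. Trim28, the scaffold, read 2864 and 2640 in KO, against 2608 and 2739 in WT (0.041 ± 0.097, adjusted p = 0.880 in limma). Setdb1, the methyltransferase, read 325.1 and 293.9 in KO, against 237.7 and 248.6 in WT (0.35 ± 0.15, adjusted p = 0.296 in limma). Hdac1, the close relative of Hdac2, read 689.0 and 590.6 in KO, against 781.9 and 789.6 in WT (-0.30 ± 0.13, adjusted p = 0.275 in limma). Smarcad1, a remodeller that binds Trim28, read 358.6 and 332.2 in KO, against 271.8 and 256.5 in WT at its brightest probe set (0.39 ± 0.15, adjusted p = 0.234 in limma), and 150.6 and 121.2 in KO, against 218.3 and 141.0 in WT at the other (-0.38 ± 0.22).

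Zinc finger genes with other names had a share of positive differences close to that of the Zfp genes. Over 153 tested probe sets of genes whose symbols start with Zbtb, Zscan, Zkscan, Zfand, Zfhx, Zfyve, Klf, Zmy, Znf, Zfpm or Zfx, 2 passed in limma, Klf13 higher and Zfpm1 lower in KO. The difference was positive at 92 (60.1%), against 61.3% of the Zfp members, and the medians were 0.075 for these relatives and for the Zfp members. The share was 25% for Zfhx and for Zfpm (4 probe sets each), 43.8% for Zfand (16), 55.2% for Klf (29), 69.4% for Zbtb (49) and 77.8% for Zscan (9). Symbols that start with Zfp but are not members, the Zfpm genes among them, had 3 of 10 probe sets positive (30%), with a median of -0.11. An unadjusted p under 0.05 was reached by 15.7% of the relatives, against 10% of the Zfp members, and the difference between these shares was not tested.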

How the data were processed

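Transcript levels were measured on 4 arrays, 2 KO and 2 WT, grouped by their titles. The signal that the authors deposited for every probe set is an intensity, which the submitters' processing notes tie to MAS5. Its 2%-trimmed mean was 150 on every array, so arrays were not rescaled. Per the file headers, detection is given as a p-value and a call (Present, Marginal or Absent). The deposited log2 ratio against a baseline array was not used. The deposited table of the whole series held the same signals.

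From 45101 probe sets the 64 controls were removed. Names are those of the platform annotation, and all 612 member probe sets matched the GRCm38.p6 gene table with no symbol changed. Probe sets with 2 Present calls in KO or in WT were fitted (limma 3.58.1 in R 4.3.3, lmFit and eBayes with a variance trend), after signals of 0 were set to 0.1, with genotype as the sole factor and Benjamini-Hochberg adjustment over all 19065. The fit was tested on simulated data. Precision is limited by having 4 arrays.

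The genes named are every member past the threshold, the 12 with the smallest p in each direction, the 5 with the brightest probe set, listed members of known role and those on the X chromosome. The members and lists were chosen with earlier results of these data known. Protein sequences were not used here, so members were not split by KRAB domain as planned. Alternatives were other normalizations, offsets of 16 and 64, other filters, other variance models, each array left out and the replicate number as a block.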

Additional observations from a re-analysis of the deposited data

How the results depend on the processing

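With 2 arrays per group, the data leave each single probe set with little precision, and dim members have the least. The number of Zfp probe sets past the threshold was 1 in the reported fit and 0 without a filter on detection and 0 without a variance trend, where Zfp207 1438714_at had adjusted p = 0.146 and 0.178 in limma. It ranged from 1 to 4 with 1 array left out, where the other group alone gives the spread, of which 0 to 2 were higher and 1 to 2 lower. With the replicate block it was 4, of which 2 were higher and 2 lower, Zfp472 1425058_at (adjusted p = 0.0480), Zfp787 1435015_at (0.0480), Zfp871 1435163_at (0.0175) and Zfp207 1438714_at in limma. The replicate numbers do not pair the arrays by any label, and the deviations of same-numbered arrays from their group means correlated at -0.011. Members at an unadjusted p under 0.05 numbered 49 of 612 without a filter on detection and from 18 to 40 with 1 array left out. Without a filter on detection that was 8.01% of the members, against 9.71% of all probe sets. With any 1 array left out, the members' share was also below that of all probe sets tested. The median difference of the members, 0.075, was 0.136 with quantile normalization and 0.043 with centring on the median. It was 0.044 with an offset of 64 and 0.034 without a filter on detection, and stayed positive in every alternative run. Counting a gene by any of its probe sets gave 1 called gene in place of 0. Over all probe sets tested, 256 passed in the reported fit, 721 with the replicate block, 37 without a filter and 23 without a variance trend.

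Of the 86 named probe sets, 29 changed sign in at least 1 alternative, none of them past the threshold in the reported fit. Zfp106 1425332_at turned to -0.023 with quantile normalization and -0.021 with centring, Zfp148 1418381_at to -0.025 with centring, Zfp217 1437414_at to -0.012 and -0.029, and Zfp871 1433784_at to -0.0059 and -0.00067. With 1 array left out, the lowest and highest differences were -0.34 to 0.10 for Zfp106 1425097_a_at, -0.52 to 0.078 for Zfp106 1425098_at, -0.16 to 0.18 for Zfp106 1425332_at, -0.091 to 0.10 for Zfp148 1418381_at, -0.095 to 0.26 for Zfp148 1427730_a_at, -0.12 to 0.40 for Zfp182 1446820_at, -0.089 to 0.093 for Zfp217 1437414_at, -0.50 to 0.017 for Zfp24 1422810_at, -0.074 to 0.058 for Zfp275 1418397_at, -0.074 to 0.22 for Zfp280c 1427983_at, -0.027 to 0.35 for Zfp281 1452045_at, -0.29 to 0.51 for Zfp292 1419574_at, -0.10 to 0.22 for Zfp292 1419575_s_at, -0.16 to 0.024 for Zfp292 1449515_at, -0.14 to 0.30 for Zfp335 1453039_at, -0.019 to 0.31 for Zfp445 1427255_s_at, -0.12 to 0.071 for Zfp445 1454774_at, -0.090 to 0.17 for Zfp568 1435091_at, -0.46 to 0.68 for Zfp606 1436429_at, -0.0033 to 0.55 for Zfp606 1454951_at, -0.084 to 0.49 for Zfp62 1425495_at, -0.064 to 0.36 for Zfp638 1417792_at, -0.56 to 0.34 for Zfp655 1429217_at, -0.0022 to 0.24 for Zfp655 1431252_a_at, -0.014 to 0.62 for Zfp711 1432750_at, -0.20 to 0.37 for Zfp809 1440890_a_at, -0.036 to 0.097 for Zfp871 1433784_at, -0.63 to 0.12 for Zfp91 1426326_at, -1.22 to 0.32 for Zfp91 1429616_at. The cause of these changes was not tested.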
